A study of Mus musculus with 19 samples.

Results

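Non-collagen matrix proteins and the enzymes that act on the matrix were followed in mouse hearts through 40 genes, taken from the deposited expression table by gene name, of 56066 genes listed there. All 40 were among the 14812 genes tested. The study sequenced RNA of whole hearts to follow heart maturation after birth with and without the kinase PDK1. The groups were PDK1 cKO hearts at postnatal day 7 (P7, n = 3), WT hearts at P7 (n = 5), PDK1 cKO hearts at P21 (n = 3), WT hearts at P21 (n = 4) and WT hearts at P1 (n = 3). The samples' labels give the youngest group as P1, while the design text of the series names it P0, and P1 is used here. The labels give the knockout genotype as PDK1 CKO and give neither the promoter that drove the deletion nor the sex of the mice. They do not say that the libraries came from separate animals, so the p-values measure the spread between libraries.

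The extracellular matrix of the heart is made mainly by fibroblasts, with smooth muscle, pericytes and endothelium adding basement membrane and elastic fibres. Matricellular proteins such as periostin and SPARC regulate how cells build and bind the collagen network, elastin and the microfibril proteins give recoil, small leucine-rich proteoglycans coat collagen fibrils, and laminins, nidogen and perlecan form the sheet around each muscle cell and capillary. Lysyl oxidases crosslink the fibres, a set of enzymes and chaperones folds procollagen inside the cell, and metalloproteinases and their TIMP inhibitors set the rate of matrix turnover. In the heart these genes are active around birth, when the ventricle still grows quickly, and several of them are switched on again after injury.

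Values were TPM, transcript abundances per gene length whose sum over all genes is the same in each library. Each test was run on log2(TPM + 1) over all tested genes, first on TPM as deposited (raw) and again after median-ratio scaling, which sets the typical gene equal between libraries. Both scales are given because the median of all tested genes moved by 0.22 (log2) in P21 cKO against P21 WT and by -0.47 in WT P21 against P7 on the raw scale, and by 0.014 and -0.004 after scaling. The 8 cardiomyocyte markers summed to between 53492 and 65236 TPM in every library, and none of them was at 0 throughout a group. The labels name PDK1 without a gene identifier. Pdpk1 had 7.95 to 8.09 TPM in P7 cKO against 7.96 to 11.9 TPM in P7 WT libraries, and 4.95 to 5.55 TPM in P21 cKO against 6.17 to 7.65 TPM in P21 WT libraries, and the deposited value covers the whole gene. Pdk1 had 36.9 to 40.2 TPM in P7 cKO against 36.1 to 44.7 TPM in P7 WT libraries, and 31.6 to 37.7 TPM in P21 cKO against 24.3 to 29.4 TPM in P21 WT libraries. WT libraries carried 2 title styles, a letter code or a plain number, cKO titles were all plain numbers and P1 titles all letter codes, and the model held a term for the style. The letter-coded P21 WT titles carry the tag B6, which plain-number and cKO titles lack. The titles do not say what the tag stands for. A difference of strain or colony therefore cannot be told apart from title style. P21 WT library 57 held the lowest raw value of its group for 26 of the 40 genes. Its median-ratio size factor, 0.7122, was the lowest of the fitted libraries, so its typical gene was low too. The share over all genes was not counted. A P21 library numbered 63, whose title and genotype label disagree, was left out.

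The 40 genes together made up 0.431% of all TPM in P7 cKO and 0.461% in P7 WT hearts, and 0.275% in P21 cKO and 0.203% in P21 WT hearts, with 0.38% in P1 WT hearts. Their summed level was 2748 ± 145 TPM in P21 cKO and 2027 ± 157 TPM in P21 WT libraries (SD, n = 3 and 4), with 2581 to 2832 TPM in P21 cKO against 1837 to 2189 TPM in P21 WT libraries. The P21 groups did not overlap, also after scaling, with 2981 to 3114 in P21 cKO against 2579 to 2726 in P21 WT libraries. At P7 the sums overlapped, with 3999 to 4700 TPM in cKO against 4132 to 5053 TPM in WT libraries. Sparc, which encodes the collagen-binding matricellular protein SPARC, had the highest mean level of the 40 in all 5 groups. In the order of mean levels Sparc was followed by Postn, Serpinh1, Eln and Dcn in P7 WT hearts, and by Dcn, Serpinh1, Hspg2 and Lamc1 in both P21 groups.

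Promoter windows of 4 members are shown here, chosen after their values were seen because the genes passed the P21 cKO against P21 WT test on both scales. The windows hold the 250 bases before to 50 bases after the start of the gene as RefSeq gives it (GRCm38.p6, the sequence of mm10), written 5′ to 3′ on the strand of the gene, and 27 of the 40 genes had such a window. Capitals mark letters searched for on both strands: CAGAC, the core bound by SMAD factors, GGAATG, bound by TEAD factors, and GGGCGG, the GC box. Postn (periostin) lies on the plus strand, its window at chr3:54359017-54359316, upstream of the gene body that GENCODE M21 gives on the same build. Emilin2 lies on the minus strand, its window at chr17:71311507-71311806. This window lies inside the gene body of GENCODE M21, which starts at 71311978 on that strand. Mmp14 lies on the plus strand, its window at chr14:54431348-54431647, and Timp1 on the plus strand at chrX:20869916-20870215.
Postn: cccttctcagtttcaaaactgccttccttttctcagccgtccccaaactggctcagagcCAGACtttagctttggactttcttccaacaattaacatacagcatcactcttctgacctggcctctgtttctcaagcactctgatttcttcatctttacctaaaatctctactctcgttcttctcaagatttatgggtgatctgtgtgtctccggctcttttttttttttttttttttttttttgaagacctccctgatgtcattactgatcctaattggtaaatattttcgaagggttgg
Emilin2: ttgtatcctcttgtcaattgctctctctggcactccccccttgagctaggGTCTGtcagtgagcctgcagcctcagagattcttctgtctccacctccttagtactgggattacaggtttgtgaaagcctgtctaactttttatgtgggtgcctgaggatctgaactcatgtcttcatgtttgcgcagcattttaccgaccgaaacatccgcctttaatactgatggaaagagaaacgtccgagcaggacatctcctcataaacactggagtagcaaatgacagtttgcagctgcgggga
Mmp14: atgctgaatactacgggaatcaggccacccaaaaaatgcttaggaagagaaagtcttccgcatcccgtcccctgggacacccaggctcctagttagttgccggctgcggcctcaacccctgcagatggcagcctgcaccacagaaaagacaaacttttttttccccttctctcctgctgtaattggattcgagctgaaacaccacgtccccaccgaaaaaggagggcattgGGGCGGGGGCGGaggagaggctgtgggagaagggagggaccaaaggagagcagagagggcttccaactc
Timp1: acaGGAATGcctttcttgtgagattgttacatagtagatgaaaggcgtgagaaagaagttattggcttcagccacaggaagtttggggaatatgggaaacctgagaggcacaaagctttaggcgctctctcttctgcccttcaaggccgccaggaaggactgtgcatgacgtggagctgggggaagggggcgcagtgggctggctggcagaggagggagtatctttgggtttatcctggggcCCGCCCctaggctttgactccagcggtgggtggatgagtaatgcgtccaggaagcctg
Postn holds CAGAC, Emilin2 holds its reverse complement, Mmp14 holds 2 GC boxes side by side, and Timp1 holds the TEAD letters and a GC box. Over all members, CAGAC was in 13 of 27 windows and in 49.7% of the 27025 windows of all genes, GGAATG in 3 of 27 and 14.6%, and GGGCGG in 20 of 27 and 35.9%. The AP-1 letters TGANTCA were in 0 of 27 member windows and in 7.93% of all windows, and the TATA box TATAAA in 5 of 27 and 14.2%. A match describes the letters of the window and not a bound site.

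**Figure D1:**
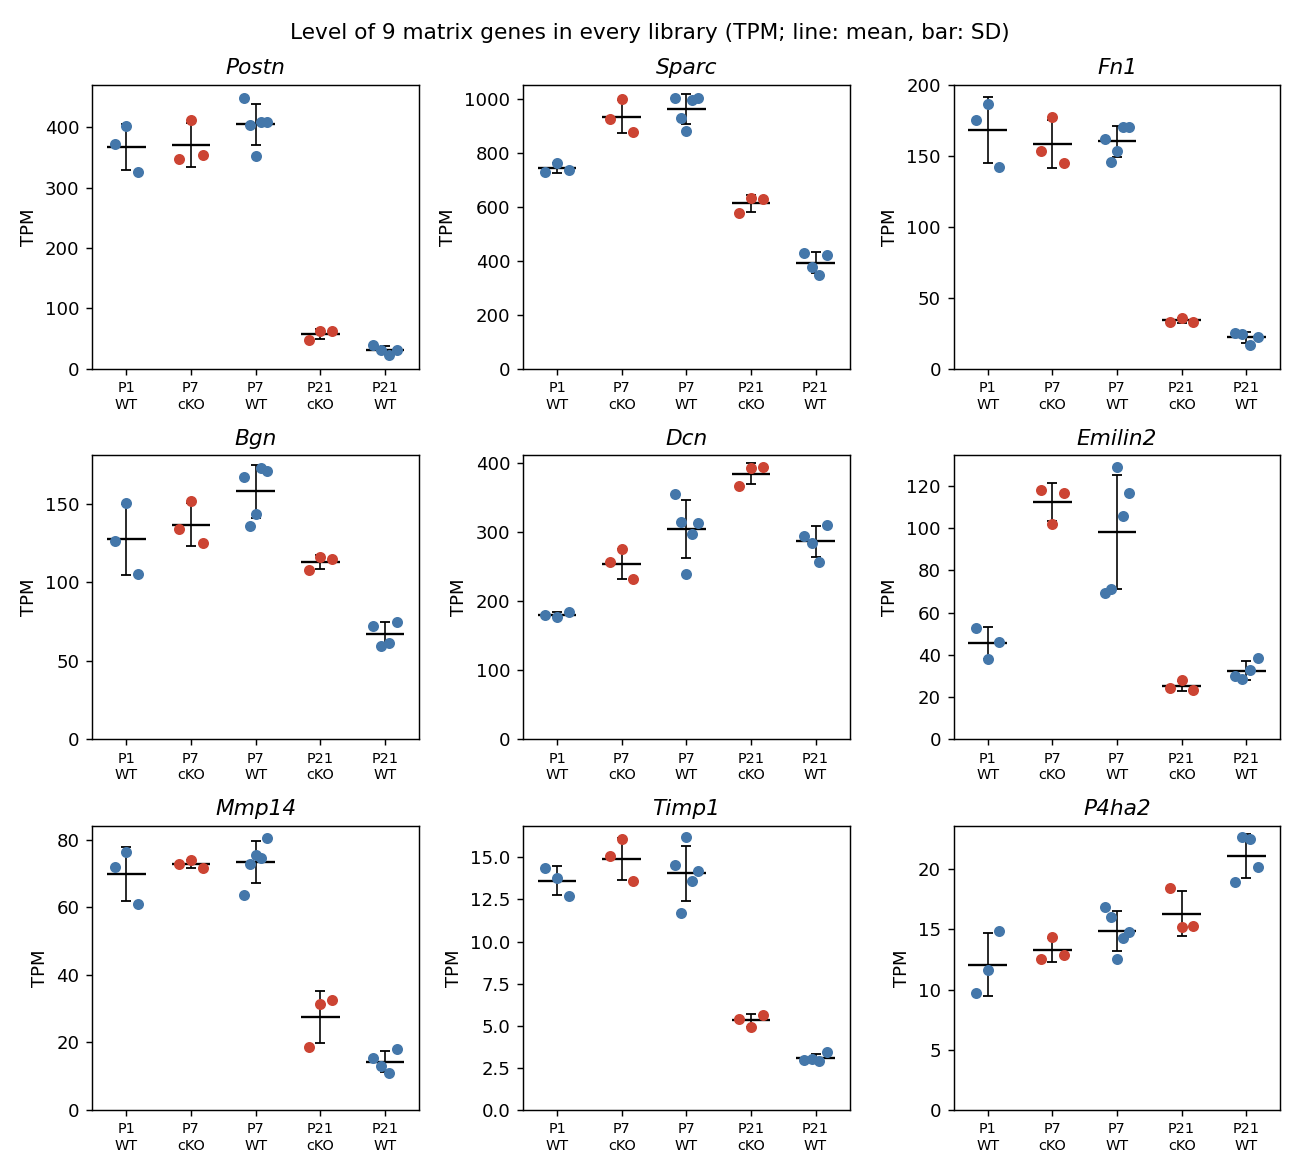
TPM (y axis) of 9 matrix genes in each library by group (x axis), red points cKO and blue points WT libraries, line the mean and bar the SD. Postn, Fn1, Mmp14 and Timp1 are far lower in both P21 groups than before. P21 cKO and P21 WT libraries do not overlap for any gene shown, with cKO lower for Emilin2 and P4ha2 and higher for the others.

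In WT hearts during the first postnatal week, 3 of the 5 small proteoglycans and 4 of the 8 elastic fibre and microfibril genes rose, while fibronectin and tenascin did not pass the test. Of the 40 members 15 were higher at P7 than at P1 and 1 was lower, on both scales. Of all tested genes 13.8% were higher and 14.7% lower on the raw scale, and 15.4% and 15.5% after scaling. The median member changed by 0.25 (log2), against -0.001 for all tested genes. Lum, encoding lumican, was 1.03 higher on the log2 scale, and Timp3, which encodes a matrix-bound inhibitor of metalloproteinases, was the 1 member lower at P7. Cell-type markers moved as well: 6 of 8 endothelial markers were higher at P7 on both scales, 4 of 8 mural markers on the raw scale and 5 after scaling, each with 1 lower, and 5 of 12 fibroblast markers on both scales, with 1 lower. The endothelial markers summed to 689.5 to 834 TPM in P7 WT and 567.8 to 624 TPM in P1 WT libraries without overlap, whereas the fibroblast sums overlapped, at 1139 to 1581 TPM in P7 WT and 1148 to 1310 TPM in P1 WT libraries, and so did the mural sums, at 696.5 to 955 TPM in P7 WT and 735 to 961 TPM in P1 WT libraries. Their part in these changes was not tested.

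Among the matricellular genes, Sparc had 1003, 931, 882, 999 and 1006 TPM in P7 WT libraries, against 732, 764 and 739 TPM in P1 WT libraries. Every P7 library lay above every P1 library, and the log2 change was 0.39 ± 0.08 (SE) with an adjusted p of 0.0025. Thbs2, encoding thrombospondin 2, also rose (0.54 ± 0.13, adjusted p = 0.00672), whereas Postn (0.28 ± 0.14, adjusted p = 0.131), Tnc (0.34 ± 0.16) and Thbs1 (0.12 ± 0.32) did not pass. Fn1 (fibronectin) had 146 to 171 TPM at P7 and 142 to 187 TPM at P1, and Vcan (versican) did not pass either.

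Of the 8 elastic fibre and microfibril genes 4 rose (13.8% of all tested genes on the raw scale and 15.4% after scaling). Mfap5, encoding a small microfibril glycoprotein, had 60.7, 56.5, 59.2, 66.5 and 71.9 TPM in P7 WT libraries and 22.9, 26.9 and 41.8 TPM in P1 WT libraries, a change of 1.10 ± 0.19 (adjusted p = 0.000734). Fbn1 (fibrillin 1, the backbone of microfibrils) rose by 0.94 ± 0.20 and Mfap4 by 0.79 ± 0.20. Emilin2, which encodes an elastin-associated glycoprotein, had 69.4, 71.2, 129, 106 and 117 TPM at P7 and 52.8, 37.8 and 45.9 TPM at P1 (0.75 ± 0.13, adjusted p = 0.000808). The lower pair of P7 values, 69.4 and 71.2 TPM, are the letter-coded libraries, and they too lay above all P1 libraries. Eln (elastin) varied more among libraries of a group than between the groups, with 334, 167, 228, 437 and 580.3 TPM at P7 and 265, 369.9 and 159 TPM at P1.

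The small leucine-rich proteoglycans gave the smallest p-values. Dcn, encoding decorin, which binds collagen fibrils, had 355, 315, 240.0, 298 and 314 TPM in P7 WT libraries and 180.4, 177 and 184 TPM in P1 WT libraries. All P7 libraries were higher, by 0.83 ± 0.10 with an adjusted p of 4.91e-05. Lum had 90.1, 77.6, 60.6, 72.5 and 76.3 TPM at P7 and 44.2, 38.9 and 39.2 TPM at P1, again without overlap (adjusted p = 0.000397). Ogn, encoding osteoglycin, rose by 0.95 ± 0.13 (adjusted p = 0.000128), and Bgn (biglycan) and Fmod (fibromodulin) did not pass.

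Basement membrane genes split, with Lama2 (0.34 ± 0.08, the laminin chain of muscle) and Nid1 (0.49 ± 0.15, nidogen) higher at P7 and Lamb1 (-0.06 ± 0.10) and Hspg2 (perlecan, -0.02 ± 0.07) not called. Lamc1 passed only on the scaled values (0.23 ± 0.06, adjusted p = 0.0101, against 0.0526 on the raw scale). Loxl1, an oxidase that acts on elastin, and Serpinh1, the collagen chaperone HSP47, rose by 0.51 ± 0.13 and 0.36 ± 0.09. P4ha1, a subunit of collagen prolyl hydroxylase, rose on the raw scale (0.55 ± 0.19, adjusted p = 0.0454) and missed the threshold after scaling (adjusted p = 0.072). Plod1, a lysyl hydroxylase, rose by 0.29 ± 0.08.

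Timp3 had 49.8, 43.9, 38.1, 44.8 and 52 TPM in P7 WT libraries, against 87.1, 139 and 74.7 TPM in P1 WT libraries. The groups did not overlap, and the change was -1.10 ± 0.28 (adjusted p = 0.00844). P1 WT library 2 held the highest Timp3 value, and without it the scaled test called no member lower. The summed atrial markers were 90.8 to 435 TPM in P7 WT and 473 to 1369 TPM in P1 WT libraries, with 3 of 6 lower at P7 and none of them at 0, and their part in the Timp3 result was not tested. Olfml2b, which encodes an olfactomedin-domain matrix protein, had 12.8, 8.51, 51.7, 32.7 and 38.3 TPM in P7 WT libraries, where 12.8 and 8.51 are the letter-coded ones, and 25.9, 32.4 and 15.7 TPM in P1 WT libraries, and did not pass (-0.72 ± 0.31, adjusted p = 0.0929).

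Between P7 and P21 most matrix genes fell in WT hearts, led on the raw log2(TPM + 1) scale by periostin, fibronectin, elastin and tenascin. That scale understates changes at low levels. From P7 WT to P21 WT mean TPM went from 7.93 to 0.69 for Tnc and from 10.1 to 1.36 for Lox. On the raw scale 33 of the 40 members were lower at P21 and 1 was higher, against 64.4% of all tested genes lower and 8.1% higher. After scaling 27 were lower and 6 higher, against 26.8% and 27.6% of all tested genes. The median member changed by -1.17 on the raw and by -0.62 on the scaled values, with -0.47 and -0.004 for all tested genes. The comparisons of this series share libraries, here the P7 WT ones with P7 against P1, and each one's values are given on their own.

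Postn (ENSMUSG00000027750, chr3:54361109-54391037, plus strand, positions here and below from GENCODE M21 on mm10) had 38.8, 31, 23.2 and 30.6 TPM in P21 WT libraries, against 449, 404, 353, 409 and 409 TPM in P7 WT libraries. The gap between the groups was many times the spread within them, with a log2 change of -3.71 ± 0.11 raw and -3.14 ± 0.09 scaled (adjusted p = 1.14e-12 and 2.68e-12). Tnc, encoding tenascin C, had 0.84, 0.52, 0.71 and 0.68 TPM in P21 WT libraries, against 7.95, 6.29, 8.29, 8.29 and 8.84 TPM in P7 WT libraries (-2.39 ± 0.13). The thrombospondin genes Thbs1 (-2.18 ± 0.26) and Thbs2 (-1.70 ± 0.11) fell too, and Sparc had the smallest fall of the 5 matricellular genes (-1.30 ± 0.07 raw, -0.72 ± 0.06 scaled). Fn1 had 25.3, 24.3, 16.9 and 22.6 TPM in P21 WT libraries, against 162, 146, 153, 170.2 and 171 TPM in P7 WT libraries (-2.82 ± 0.11, adjusted p = 9.59e-12).

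All 8 elastic fibre and microfibril genes fell on the raw scale and 7 after scaling, Mfap5 being the exception (-0.38 ± 0.17, adjusted p = 0.0683). Among all tested genes 64.4% were lower on the raw scale and 26.8% after scaling. Eln had 67.1, 51, 44.9 and 63.8 TPM in P21 WT libraries, all below the P7 WT libraries at 167 to 580 TPM (-2.45 ± 0.32). Emilin1 changed by -1.82 ± 0.20, Emilin2 by -1.48 ± 0.11 and Fbn1 by -1.46 ± 0.16. The 3 lysyl oxidase genes fell as well, with changes of -2.26 ± 0.21 for Lox, -1.87 ± 0.15 for Loxl2 and -1.19 ± 0.11 for Loxl1. Among basement membrane genes the change ran from -1.64 for Lamb1 to -0.56 for Lama2, and Lama2 did not pass after scaling (0.01 ± 0.05, adjusted p = 0.837).

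Of the small proteoglycans 2 of 5 were lower at P21 on the raw scale and 1 of 5 after scaling, and of the collagen folding genes 3 of 6 and 1 of 6. The share of all tested genes lower was 64.4% on the raw scale and 26.8% after scaling. Dcn had 294, 284, 257 and 311 TPM in P21 WT libraries, within the P7 WT range, and did not pass on the raw scale (-0.09 ± 0.08, adjusted p = 0.327) but was higher at P21 after scaling (0.49 ± 0.07, adjusted p = 1.34e-05). Ogn did likewise (0.10 ± 0.11 raw, 0.67 ± 0.08 scaled), Bgn fell on both scales (-1.22 ± 0.11 and -0.64 ± 0.08), and Lum fell on the raw scale only (-0.62 ± 0.14 and -0.05 ± 0.11). P4ha2, another catalytic subunit of collagen prolyl hydroxylase, was the 1 member higher at P21 on the raw scale. It had 19, 22.7, 22.5 and 20.1 TPM in P21 WT libraries and 16.9, 16, 12.5, 14.3 and 14.8 TPM in P7 WT libraries, without overlap (0.47 ± 0.11 raw, 1.02 ± 0.13 scaled). P4ha1 (0.61 ± 0.18) and Plod2 (0.54 ± 0.10) were higher after scaling only, and Plod1 was lower on the raw scale (-0.33 ± 0.06) and higher after scaling (0.25 ± 0.06).

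Mmp14, encoding the membrane-anchored metalloproteinase that activates MMP2, had 15.2, 13, 10.8 and 18.1 TPM in P21 WT libraries and 63.7, 72.6, 75.4, 74.5 and 80.5 TPM in P7 WT libraries (-2.29 ± 0.15 raw, -1.74 ± 0.13 scaled). Timp1, a soluble inhibitor induced in injured tissue, had 2.95, 3.01, 2.89 and 3.42 TPM in P21 WT libraries and 14.6, 11.7, 16.2, 13.6 and 14.2 TPM in P7 WT libraries (-1.87 ± 0.08 raw, -1.39 ± 0.08 scaled). Both fell several fold with no overlap. Mmp2, a gelatinase, fell on the raw scale (-0.64 ± 0.11) and not after scaling (-0.07 ± 0.08), Timp2 fell on both, and Timp3 passed on neither (-0.05 ± 0.23, 0.52 ± 0.24). In bulk tissue, fewer cells of a type and less RNA per cell cannot be told apart. The 12 fibroblast markers summed to 728 to 995 TPM in P21 WT and 1139 to 1581 TPM in P7 WT libraries, with 7 lower and 3 higher at P21 on the raw scale and 6 lower and 5 higher after scaling. The 8 endothelial markers summed to 333 to 448 TPM in P21 WT and 689.5 to 834 TPM in P7 WT libraries, with 8 lower on the raw scale and 4 lower and 1 higher after scaling. The 8 mural markers summed to 511 to 753 TPM in P21 WT and 696.5 to 955 TPM in P7 WT libraries, with 5 lower on the raw scale and 3 lower and 2 higher after scaling, and the 8 macrophage markers to 125 to 181 TPM in P21 WT and 63.2 to 70.8 TPM in P7 WT libraries, with 7 higher on the raw scale and 8 after scaling. Of all tested genes 64.4% were lower and 8.1% higher on the raw scale, and 26.8% and 27.6% after scaling. The part of these cell types in the falls was not tested.

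**Figure D2:**
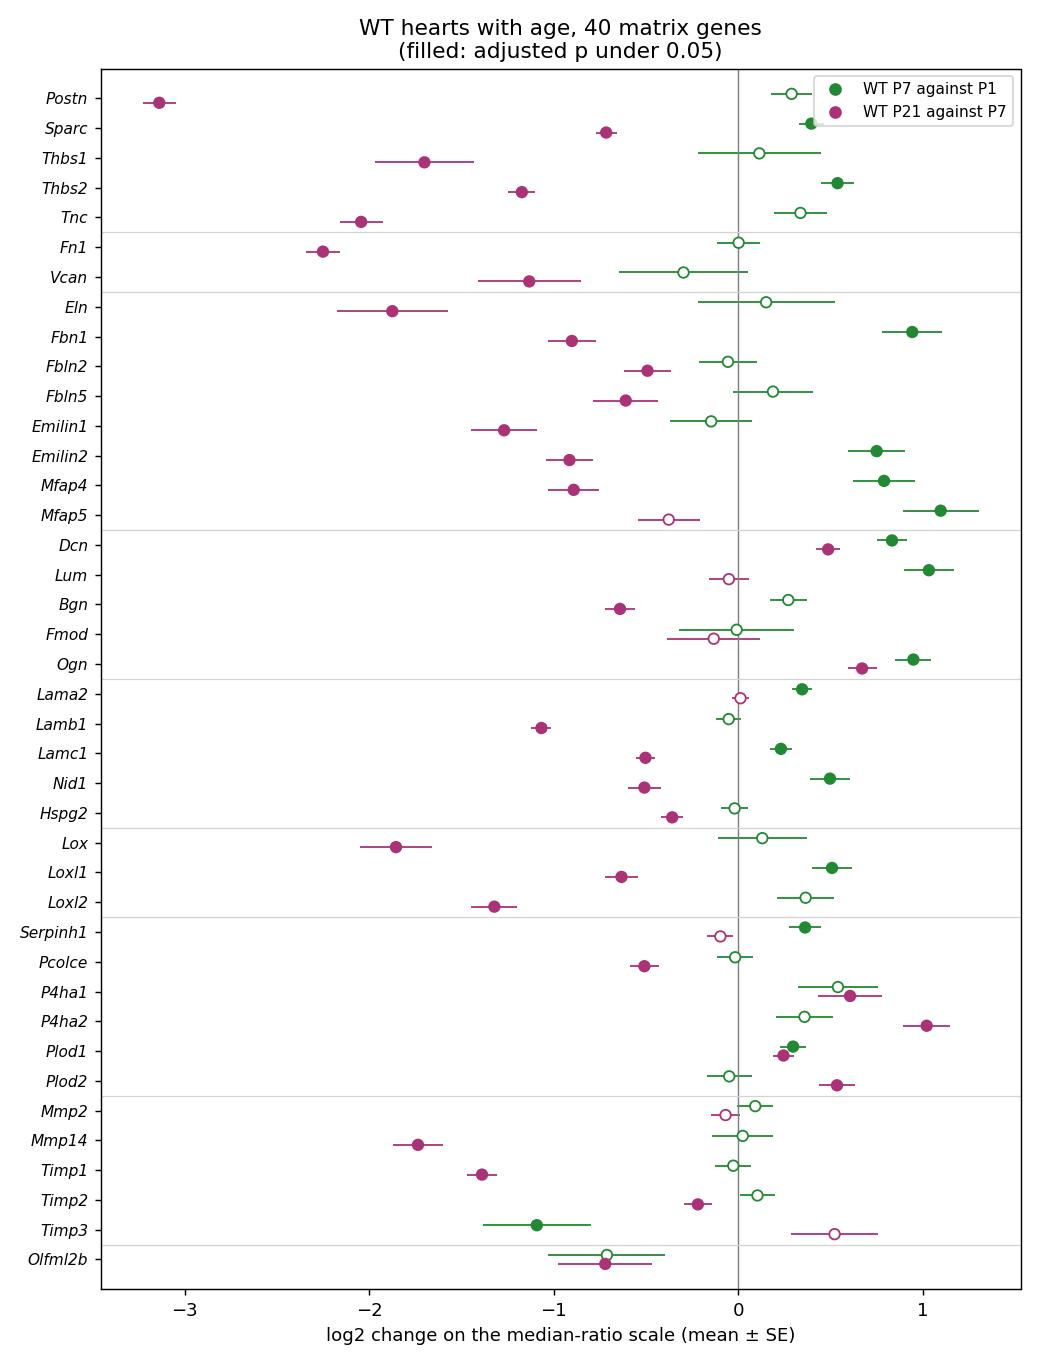
Log2 change on the median-ratio scale (x axis, mean ± SE) of the 40 genes (y axis, grouped by role) for WT P7 against P1 in green and WT P21 against P7 in purple, with filled points at an adjusted p under 0.05. Most purple points lie left of 0, led by Postn at -3.14, whereas Dcn, Ogn, P4ha1, P4ha2, Plod1 and Plod2 lie right of 0.

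In cKO hearts the decline between P7 and P21 was seen too, for 27 members lower and 1 higher on the raw scale (39% and 9.36% of all tested genes) and 19 lower and 7 higher after scaling (19.6% and 20.4%). Postn had 48.4, 62.2 and 63.2 TPM in P21 cKO libraries, against 347, 412 and 353 TPM in P7 cKO libraries (-2.66 ± 0.13 raw, -2.37 ± 0.11 scaled). Emilin2 had 24.3, 28.1 and 23.5 TPM in P21 cKO libraries and 118, 102 and 117 TPM in P7 cKO libraries (-2.11 ± 0.13, adjusted p = 6.33e-09). Fn1 (-2.18 ± 0.13), Tnc (-1.91 ± 0.15), Timp1 (-1.33 ± 0.10) and Mmp14 (-1.42 ± 0.19) fell too. Dcn was the 1 member higher at P21 on the raw scale, with 367, 393 and 394 TPM in P21 cKO and 256, 275 and 232 TPM in P7 cKO libraries (0.60 ± 0.10, adjusted p = 0.000178). After scaling Lum, Ogn, P4ha1, P4ha2, Plod1 and Mmp2 were also higher, and the scaled count of higher members was 4 without P7 cKO library 69 or 82 or P21 cKO library 59. Bgn (-0.27 ± 0.13) and Mfap4 (-0.41 ± 0.19) did not pass on the raw scale within cKO hearts.

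At P7 none of the 40 genes passed between cKO and WT hearts. By limma 0 of 40 members passed in either direction on both scales, against 0.0203% of all tested genes higher and 0% lower. At an unadjusted p under 0.05 there were 0 members on the raw scale and 4 after scaling, Thbs2, Dcn, Bgn and Ogn, all with lower fitted values in cKO. Postn had 347, 412 and 353 TPM in P7 cKO libraries and 449, 404, 353, 409 and 409 TPM in P7 WT libraries (-0.03 ± 0.13), and Sparc 926, 1001 and 879.8 TPM in P7 cKO libraries and 1003, 931, 882, 999 and 1006 TPM in P7 WT libraries (-0.03 ± 0.08). The ranges overlapped for both. The median member changed by -0.05 against -0.02 for all tested genes. Of the proteoglycans, Ogn had 34.2, 42.7 and 32.9 TPM in P7 cKO libraries and 62.5, 59.2, 34.4, 44.8 and 45.9 TPM in P7 WT libraries, of which 62.5 and 59.2 are letter-coded, a fitted change of -0.25 ± 0.12 (unadjusted p = 0.0581). The widest fitted difference was that of Eln at -0.53 ± 0.37, with 215, 364 and 179.9 TPM in P7 cKO libraries and 167 to 580 TPM in P7 WT libraries. For fibronectin, laminin and turnover genes the fitted differences were 0.02 ± 0.12 for Fn1, 0.03 ± 0.09 for Lamb1, -0.05 ± 0.18 for Mmp14 and 0.04 ± 0.10 for Timp1. None of the fibroblast, endothelial and mural markers passed at P7 either.

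At P21 Postn, Sparc, Bgn, Fn1, Timp1 and Mmp14 were higher in cKO hearts on both scales and Emilin2 was lower. At least 1 gene of 8 of the 9 roles was higher on the raw scale. With 19.5% of all tested genes higher there, a role of several genes can hold 1 by that share alone. On the raw scale 19 of 40 members were higher and 1 was lower, against 19.5% of all tested genes higher and 1.77% lower. After scaling 11 were higher and 4 lower, against 4.11% and 5.34%. The median member changed by 0.45 raw and 0.22 scaled, with 0.22 and 0.01 for all tested genes. The raw calls of 11 members (Postn, Sparc, Fn1, Emilin2, Dcn, Bgn, Lamb1, Lamc1, Pcolce, Plod1 and Timp1) and the scaled calls of 3 (Postn, Sparc and Emilin2) held in each of the 18 fits without 1 library. Without P21 WT library 57 the count of higher members was 10 raw and 3 scaled, and without P21 cKO library 64 it was 3 scaled.

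**Figure D3:**
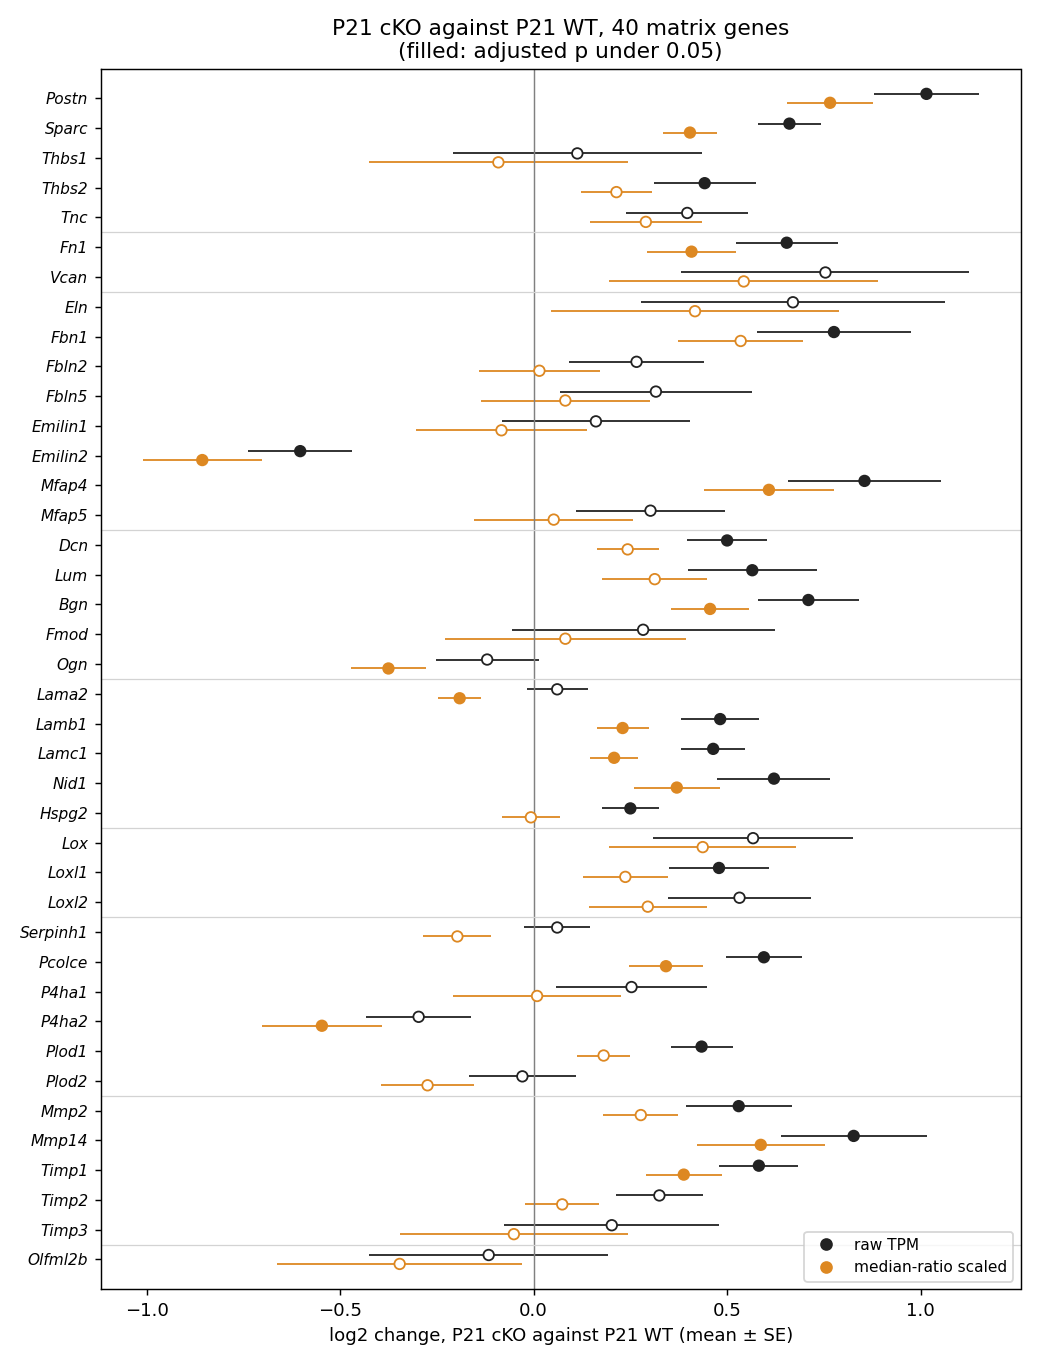
Log2 change in P21 cKO against P21 WT hearts (x axis, mean ± SE) of the 40 genes (y axis, grouped by role), black on raw TPM and orange on the median-ratio scale, with filled points at an adjusted p under 0.05. Scaling moves every point to the left, and Postn at 0.77 and Emilin2 at -0.86 remain at the ends, as fitted with the title term.

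The matricellular genes Postn and Sparc had the smallest adjusted p-values of the 40 on both scales. Postn had 48.4, 62.2 and 63.2 TPM in P21 cKO libraries, against 38.8, 31, 23.2 and 30.6 TPM in P21 WT libraries. The groups did not overlap, and the change was 1.02 ± 0.14 raw (adjusted p = 0.000317) and 0.77 ± 0.11 scaled (adjusted p = 0.000731). Sparc (ENSMUSG00000018593, chr11:55394500-55423183, minus strand) had 577, 635 and 629 TPM in P21 cKO libraries and 428, 377, 348 and 422 TPM in P21 WT libraries. Every cKO library was higher, by 0.66 ± 0.08 raw (adjusted p = 0.000181) and 0.40 ± 0.07 scaled (adjusted p = 0.00228). Thbs2 was higher on the raw scale only (0.44 ± 0.13, adjusted p = 0.0289). Tnc had 1.13, 1.41 and 1.44 TPM in P21 cKO libraries and 0.84, 0.52, 0.71 and 0.68 TPM in P21 WT libraries, without overlap, and missed the threshold (0.40 ± 0.16 on the log2(TPM + 1) scale, which understates changes at such low levels, adjusted p = 0.0798). Thbs1 did not pass, with 2.58 to 6.7 TPM in P21 cKO and 2.02 to 5 TPM in P21 WT libraries.

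Fn1 (ENSMUSG00000026193, chr1:71585520-71653200, minus strand) had 33.2, 35.8 and 33.2 TPM in P21 cKO libraries and 25.3, 24.3, 16.9 and 22.6 TPM in P21 WT libraries, a rise of 0.65 ± 0.13 raw (adjusted p = 0.00437) and 0.41 ± 0.12 scaled (adjusted p = 0.0393). The 3 cKO libraries lay close together above all WT libraries. Vcan had 6.04, 6.15 and 15.4 TPM in P21 cKO and 6.74, 2.98, 3.56 and 6.79 TPM in P21 WT libraries, where 1 cKO library, 64, stood above the rest and the test did not pass.

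Of the 8 elastic fibre and microfibril genes 2 rose on the raw scale and 1 fell, and after scaling 1 was higher and 1 lower. Of all tested genes 19.5% were higher and 1.77% lower on the raw scale, and 4.11% and 5.34% after scaling. Emilin2 (ENSMUSG00000024053, chr17:71252172-71311978, minus strand) had 24.3, 28.1 and 23.5 TPM in P21 cKO libraries, against 29.8, 28.4, 32.9 and 38.7 TPM in P21 WT libraries. The highest cKO value lay just under the lowest WT value, and the fitted change was -0.60 ± 0.13 raw (adjusted p = 0.00704) and -0.86 ± 0.15 scaled (adjusted p = 0.00322). Letter-coded P21 WT libraries averaged 29.1 TPM of Emilin2 and plain-number ones 35.8 TPM. In P7 WT hearts those averages were 70.3 and 117 TPM, and the model shares 1 title term over all ages. The fitted P21 change thus also draws on the wider gap between title styles at P7. The scaled group means were 28.2 in P21 cKO and 42.2 in P21 WT libraries. With plain-number titles only the raw change was -0.48 (adjusted p = 0.0308), and with no title term it was -0.34 and did not pass (adjusted p = 0.21). Mfap4, a microfibril-associated protein, had 37.6, 46.7 and 46.9 TPM in P21 cKO libraries and 27.3, 23.4, 18.4 and 28.3 TPM in P21 WT libraries and rose on both scales (0.86 ± 0.20 and 0.61 ± 0.17). Fbn1 rose on the raw scale (0.78 ± 0.20, adjusted p = 0.0142) and missed the threshold after scaling (adjusted p = 0.0505). Eln had 90.3, 103 and 109.7 TPM in P21 cKO and 67.1, 51, 44.9 and 63.8 TPM in P21 WT libraries, with no overlap, yet did not pass (0.67 ± 0.39 with an adjusted p of 0.22). The model shares 1 estimate of spread over all 5 groups. Eln ran from 167 to 580 TPM in P7 WT, 180 to 364 TPM in P7 cKO and 159 to 370 TPM in P1 WT libraries. The SE therefore also holds the wider spread of those younger groups. The other 4 genes of the group did not pass. Mfap5 had 34.5 to 44.5 TPM in P21 cKO and 24.5 to 38.7 TPM in P21 WT libraries, Fbln2 (fibulin 2) 43.9 to 47.1 TPM in P21 cKO and 26.7 to 42.9 TPM in P21 WT libraries, Fbln5 (fibulin 5) 11 to 13.1 TPM in P21 cKO and 7.92 to 10.2 TPM in P21 WT libraries, and Emilin1 9.99 to 19.9 TPM in P21 cKO and 9.65 to 20.4 TPM in P21 WT libraries.

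Of the small proteoglycans, Bgn, encoding biglycan (ENSMUSG00000031375, chrX:73483602-73495933, plus strand), had 108, 116 and 115 TPM in P21 cKO libraries and 72.1, 59.5, 61.5 and 74.8 TPM in P21 WT libraries. All cKO libraries were higher, by 0.71 ± 0.13 raw (adjusted p = 0.00253) and 0.46 ± 0.10 scaled (adjusted p = 0.0102). Dcn had 367, 393 and 394 TPM in P21 cKO libraries and 294, 284, 257 and 311 TPM in P21 WT libraries, a rise on the raw scale (0.50 ± 0.10, adjusted p = 0.0048) that missed the threshold after scaling (0.24 ± 0.08, adjusted p = 0.0712). Lum was higher on the raw scale only (0.57 ± 0.17), and Fmod, at 5.21 to 5.52 TPM in P21 cKO and 2.63 to 5.3 TPM in P21 WT libraries, did not pass. Ogn had 40.5, 44.8 and 43.5 TPM in P21 cKO libraries and 55.9, 55.9, 45.9 and 55.5 TPM in P21 WT libraries. All its cKO values lay below the WT values, and it was lower after scaling (-0.37 ± 0.10, adjusted p = 0.0272) but not called on the raw scale (-0.12 ± 0.13, adjusted p = 0.524).

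Of the 5 basement membrane genes 4 rose on the raw scale (19.5% of all tested genes), the muscle laminin chain being the exception. Lamc1, the laminin chain shared by most laminins, had 123, 139 and 140.4 TPM in P21 cKO libraries and 102, 95.2, 86.8 and 108 TPM in P21 WT libraries (0.46 ± 0.08, adjusted p = 0.00212). Lamb1 (0.48 ± 0.10) and Nid1 (0.62 ± 0.15) rose as well, and these 3 passed after scaling too, at 0.21, 0.23 and 0.37, though each scaled call was lost in more than 10 of the 18 fits without 1 library. Hspg2 rose on the raw scale (0.25 ± 0.07) and was near 0 after scaling (-0.01 ± 0.08). Lama2 had 35.1, 35.5 and 35 TPM in P21 cKO libraries and 36.3, 35.2, 31.4 and 39.4 TPM in P21 WT libraries, overlapping, with 0.06 ± 0.08 on the raw scale and a lower level after scaling (-0.19 ± 0.06, adjusted p = 0.0438).

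Of the 6 collagen folding and processing genes 2 rose on the raw scale (19.5% of all tested genes). After scaling 1 was higher and 1 lower (4.11% and 5.34%). Pcolce, the enhancer of procollagen C-proteinase, had 60.2, 68 and 68.9 TPM in P21 cKO libraries and 45.5, 39, 44.5 and 45.3 TPM in P21 WT libraries (0.60 ± 0.10 raw, adjusted p = 0.00129, and 0.34 ± 0.10 scaled, adjusted p = 0.0373). Plod1 had 57.3, 68.2 and 60 TPM in P21 cKO libraries and 40.9, 40.1, 42.8 and 50.4 TPM in P21 WT libraries and rose on the raw scale (0.43 ± 0.08, adjusted p = 0.00245). Neither group pair overlapped. P4ha2 had 18.4, 15.2 and 15.3 TPM in P21 cKO libraries and 19, 22.7, 22.5 and 20.1 TPM in P21 WT libraries, every cKO value being lower, and was lower after scaling (-0.55 ± 0.16, adjusted p = 0.0391) but not called on the raw scale (-0.30 ± 0.14, adjusted p = 0.123). Serpinh1 had 206, 241 and 235 TPM in P21 cKO libraries and 214, 217, 224 and 225 TPM in P21 WT libraries. It did not pass on either scale, nor did P4ha1 and the lysyl hydroxylase gene Plod2. Of the crosslinking enzymes, Loxl1 was higher on the raw scale (0.48 ± 0.13, adjusted p = 0.0192), and Lox (0.57 ± 0.26) and Loxl2 (0.53 ± 0.19, adjusted p = 0.0523) did not pass.

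Among turnover genes, Timp1 (ENSMUSG00000001131, chrX:20870166-20874735, plus strand) had 5.42, 4.91 and 5.65 TPM in P21 cKO libraries and 2.95, 3.01, 2.89 and 3.42 TPM in P21 WT libraries. The groups did not overlap (0.58 ± 0.10 raw, adjusted p = 0.00186, and 0.39 ± 0.10 scaled, adjusted p = 0.0228), though both stayed well below the P7 levels of 11.7 to 16.2 TPM. Mmp14 (ENSMUSG00000000957, chr14:54431612-54445364, plus strand) had 18.5, 31.2 and 32.4 TPM in P21 cKO libraries and 15.2, 13, 10.8 and 18.1 TPM in P21 WT libraries and rose on both scales (0.83 ± 0.19 and 0.59 ± 0.17). Library 55, the lowest of the cKO libraries for Mmp14, was only just above the highest WT library. Mmp2 was higher on the raw scale (0.53 ± 0.14), and Timp2 (0.33 ± 0.11, adjusted p = 0.0521) did not pass. Timp3 did not pass either, with 85.4, 39.3 and 40.2 TPM in P21 cKO libraries and 40.4, 42, 61 and 35.6 TPM in P21 WT libraries, where cKO library 55 stood apart from the other two. Olfml2b had 11, 12.1 and 14.1 TPM in P21 cKO libraries and 6.86, 7.48, 10.1 and 10 TPM in P21 WT libraries, the cKO values all being higher, with means of 12.4 TPM in P21 cKO and 8.63 TPM in P21 WT libraries. Letter-coded P21 WT libraries averaged 7.17 TPM of Olfml2b and plain-number ones 10.1 TPM, the latter also below every cKO library. At P7 the WT averages were 10.6 TPM for letter-coded and 40.9 TPM for plain-number libraries, and the model shares 1 title term over all ages. The fit with that term gave a change of the other sign that did not pass (-0.12 ± 0.31), and this sign is not borne out by the P21 values themselves.

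Markers of fibroblasts, endothelium and mural cells were called higher in the same comparison. Of all tested genes 19.5% were higher and 1.77% lower on the raw scale, and 4.11% and 5.34% after scaling. The 12 fibroblast markers summed to 1233 to 1481 TPM in P21 cKO and 728 to 995 TPM in P21 WT libraries, with 9 higher on the raw scale and 5 after scaling. The 8 endothelial markers summed to 517 to 571 TPM in P21 cKO and 333 to 448 TPM in P21 WT libraries, with 7 higher raw and 1 scaled, and the 8 mural markers to 818 to 1102 TPM in P21 cKO and 511 to 753 TPM in P21 WT libraries, with 5 higher raw and 2 scaled. Macrophage markers had 117 to 149.5 TPM in P21 cKO and 125 to 181 TPM in P21 WT libraries, with 0 of 8 called raw. Cardiomyocyte markers had 57675 to 61287 TPM in P21 cKO and 53492 to 59013 TPM in P21 WT libraries, with 0 of 8 called raw and 1 lower after scaling. The 7 epicardial and mesothelial markers summed to 35.5 to 47.2 TPM in P21 cKO and 27.4 to 34.4 TPM in P21 WT libraries with 0 called, and the 4 Schwann cell markers to 5.49 to 7.49 TPM in P21 cKO and 2.85 to 3.42 TPM in P21 WT libraries with 1 of 2 tested higher on the raw scale. Red blood cell markers summed to 10702 to 20934 TPM in P21 cKO and 6225 to 16184 TPM in P21 WT libraries, overlapping, with 0 of 5 called. The 7 valve and cartilage-like markers summed to 23.1 to 26.5 TPM in P21 cKO and 18 to 20.7 TPM in P21 WT libraries, without overlap, with 0 of 4 tested called. Skeletal muscle markers summed to 176 to 324 TPM in P21 cKO and 114 to 196 TPM in P21 WT libraries, with 1 of 4 tested lower, and atrial markers to 48.2 to 282 TPM in P21 cKO and 109 to 158 TPM in P21 WT libraries, with 0 of 6 called. In every P21 WT library 1 atrial and 2 skeletal muscle markers were at 0, and no marker of the other 9 lists was at 0 throughout a P21 group. Their part in the P21 matrix result was not tested.

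The cKO effect at P21 was larger than that at P7 for 15 members and more negative for 1, on the raw scale, in the direct test of the difference. Of all tested genes, 7.04% and 0.52% passed in those directions. After scaling 4 members passed in the upward direction, Postn, Sparc, Dcn and Bgn, and 1 downward, Emilin2 (0.965% and 1.4% of all tested genes). Postn differed by 1.05 ± 0.17 raw (adjusted p = 0.00482) and 0.77 ± 0.14 scaled (adjusted p = 0.0117), Sparc by 0.69 ± 0.10 and 0.41 ± 0.09, and Bgn by 0.94 ± 0.17 and 0.66 ± 0.13. Dcn differed by 0.69 ± 0.13 and 0.41 ± 0.10 (adjusted p = 0.00838 and 0.0487). These same contrasts compare the P7 to P21 change in cKO with that in WT hearts, so a positive value also means a change with age that was less negative or more positive in cKO. Emilin2 differed by -0.62 ± 0.17 raw and -0.90 ± 0.20 scaled (adjusted p = 0.0389 and 0.0264), the same contrast giving a more negative change with age in cKO. On the raw scale Lamc1 (0.55 ± 0.11), Pcolce (0.67 ± 0.13), Timp1 (0.54 ± 0.13) and Mfap4 (1.05 ± 0.25) also passed. The raw calls of 6 members (Postn, Sparc, Dcn, Bgn, Lamc1 and Pcolce) and the scaled call of Postn held in each fit without 1 library. Without P7 cKO library 69 or 82, or P21 cKO library 64, the raw count of upward members was 6, and without P7 cKO library 69 or 82 the scaled count was 1. With plain-number titles only the raw count was 3. The raw call of Emilin2 was kept in 8 of the 18 fits without 1 library, with adjusted p-values up to 0.0982. It was also lost with no filter on low values (adjusted p = 0.0807), with the replicate block (0.0594), with no title term (-0.57, adjusted p = 0.172) and with plain-number titles only (-0.42, adjusted p = 0.209).

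**Figure D4:**
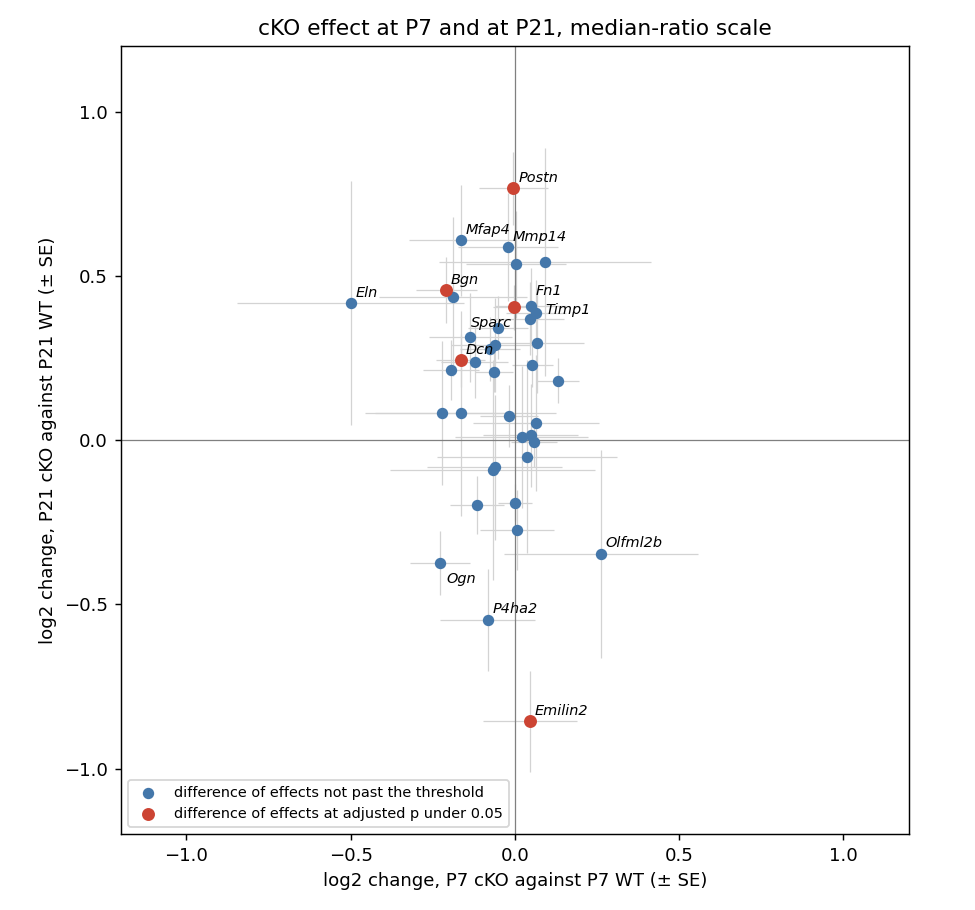
Log2 change on the median-ratio scale, each point 1 of the 40 genes with its SE, in P7 cKO against P7 WT hearts (x axis) and in P21 cKO against P21 WT hearts (y axis). Red points pass the test of the difference of the effects. Postn lies near 0 at P7 and at 0.77 at P21, and Emilin2 at -0.86 at P21, as fitted with the title term.

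Beyond the 40 members, a list of 54 other non-collagen matrix genes had 49 tested. In P21 cKO against P21 WT hearts 21 of the 49 were higher and 0 lower on the raw scale (19.5% and 1.77% of all tested genes), and 7 and 0 after scaling (4.11% and 5.34%). P4hb, the protein disulfide isomerase that forms the beta subunit of prolyl hydroxylase, had 129, 130.3 and 125 TPM in P21 cKO libraries and 80.6, 76.4, 76.7 and 87.6 TPM in P21 WT libraries (0.65 ± 0.07, adjusted p = 7.89e-05). Lama4, the laminin chain of vessel walls, had 28.5, 32.5 and 32.8 TPM in P21 cKO libraries and 18.8, 19.2, 19.3 and 21.3 TPM in P21 WT libraries (0.69 ± 0.09 raw, 0.44 ± 0.07 scaled). Mfap2, a microfibril glycoprotein, rose on both scales (0.88 ± 0.13 and 0.67 ± 0.12). P4ha3, another catalytic subunit of prolyl hydroxylase, had 789.8, 776 and 833 TPM in P7 cKO and 3.44, 3.24, 2.14, 3.32 and 2.3 TPM in P7 WT libraries, and 575, 575 and 542 TPM in P21 cKO and 0.07, 0.3, 0.09 and 0.13 TPM in P21 WT libraries. In cKO libraries it thus exceeded its relatives P4ha1 and P4ha2, which had 12.2 to 19.1 TPM there, and it was the 1 gene of the list called at P7 (7.78 ± 0.18, adjusted p = 2.15e-13). What gives this near all-or-none P4ha3 signal was not tested, and the deposited value does not show which part of the gene the reads cover.

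With age in WT hearts, 15 of the 49 were higher and 8 lower at P7 than at P1 on the raw scale (13.8% and 14.7% of all tested genes), with Tnxb (0.78 ± 0.10, tenascin X) and Prelp (0.80 ± 0.12, a small proteoglycan) higher and Smoc1 (-0.83 ± 0.12) lower. At P21 against P7, 33 of the 49 were lower and 6 higher on the raw scale (64.4% and 8.1% of all tested genes), and 25 and 13 after scaling (26.8% and 27.6%). Cthrc1, a secreted protein of injured vessels, changed by -3.40 ± 0.17, Mfap2 by -2.49 ± 0.11, Lama4 by -1.64 ± 0.07 and Bmp1, the procollagen C-proteinase, by -1.27 ± 0.06. In cKO hearts 24 were lower and 11 higher at P21 than at P7 on the raw scale (39% and 9.36% of all tested genes), led by Cthrc1 (-3.38 ± 0.20).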

How the data were processed

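RNA of whole mouse hearts was extracted with RNA iso Plus and made into libraries with a SMARTer kit, per the labels' protocols. Per the submitters' processing notes, reads were mapped to mm10 with TopHat2 2.0.14 and Cufflinks 2.2.1 was used. The authors deposited TPM values per gene and library in a single table. The tool that made the TPM and its annotation are not given in the sources used here. TPM keeps no sequencing depth, so depth is unknown and no counting interval is given.

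Of 56066 genes, the 14812 that reached 1 TPM in 3 or more of the 18 libraries were tested on log2(TPM + 1) with limma 3.58.1 (lmFit and eBayes with a trend) in R 4.3.3, with tables read by data.table (version 1.17.8). A single model over all 5 groups held the group and the title style, and p-values were adjusted by Benjamini-Hochberg over all tested genes, with a threshold of 0.05. The adjusted change can differ from the ratio of group means, since WT libraries of both title styles enter it. The same fit was run on values divided by median-ratio size factors. The scripts were tested on simulated data.

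The alternatives were quantile normalization, adding 0.1 in place of 1 before the logarithm, a floor of 5 TPM or none, no title term, a replicate block, mitochondrial and haemoglobin genes removed, 1 title style only and each library left out. A library numbered 63 was left out because its title and genotype label disagree. The table's 2 library columns that match no sample and its 7 columns of the authors' means were not used.

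The members and lists were chosen with earlier results of these data known. Full statistics are given for up to 8 members per direction and comparison with the smallest adjusted p, at least 1 member per role by its values, up to 4 genes of the other matrix list per comparison, and markers as whole lists. Promoter windows are from RefSeq on GRCm38.p6 and gene positions from GENCODE M21 on mm10.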

Additional observations from a re-analysis of the deposited data

Results flagged for a closer look

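In 7 of 80 combinations of a member and a group of 4 or 5 libraries, 1 library stood far from the rest, where chance flags about 1 in 20. Of these, 4 were P21 WT library 57, with 26.7 TPM of Fbln2, 34.6 TPM of Lum and 45.9 TPM of Ogn, each the lowest of its group, and 20 TPM of P4ha1, the highest. Pcolce was lowest at 39 TPM in P21 WT library 3. Vcan was highest at 22.2 TPM in P7 WT library 1, and Mmp2 was lowest at 58.9 TPM in P7 WT library 72.

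The effect of the knockout differed between P21 and P7 by the test of the difference itself for 16 members on the raw scale. Beside Postn (1.045), Sparc (0.69), Bgn (0.944), Dcn (0.691), Lamc1 (0.553), Pcolce (0.671), Mfap4 (1.045), Timp1 (0.541) and Emilin2 (-0.625), these were Thbs2 (0.66), Fn1 (0.633), Lum (0.727), Lamb1 (0.454), Loxl1 (0.626), Mmp2 (0.632) and Mmp14 (0.873), as log2 differences of the P21 effect minus the P7 effect. Among all tested genes 7.04% passed upward and 0.52% downward on the raw scale, where the median difference was 0.239. After scaling only 4 members passed upward and 1 downward, against 0.965% and 1.4% of all tested genes. Leaving out 1 library brought the raw count of upward members down to 6 at the lowest.

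Library 63, which entered no comparison because its labels disagree, had 21 of the 40 members above every P21 WT library, 18 within their range and 1 below it. Against the P21 cKO libraries it had 6 members above their range, 12 within it and 22 below it. These counts are on raw TPM, and the share over all genes was not counted. The P21 WT libraries had size factors of 0.7122 to 0.8339, so their typical gene was low as well. The counts therefore do not place library 63 with either genotype.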

How the results depend on the processing

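Counts are of the 40 members, higher then lower. At P7 cKO against WT, 0 and 0 passed under every setting run. At P21 cKO against WT (19 and 1), scaling gave 11 and 4, quantile normalization 2 lower and no title term 0 lower. Leaving out 1 library gave 10 to 22 and 1 to 1, and on scaled values 3 to 14 and 1 to 4, with 1 lower without P21 WT library 57 or P21 cKO library 59 or 64. Scaled counts with 1 library left out or 1 title style were chosen after seeing the data; plain-number titles gave 7 scaled higher. For the difference of the effects (15 and 1), scaling gave 4 higher, quantile normalization 6, removed mitochondrial and haemoglobin genes 9, no filter 7 and 0, plain-number titles 3 and 0 (0 lower also when scaled), and no title term 0 lower. Leaving out 1 library gave 6 to 18 and 0 to 1, scaled 1 to 7 and 0 to 1. The 7 came without P1 WT library 3. In WT P7 against P1 (15 and 1), scaled letter-code titles gave 9 and 2, and leaving out 1 library 12 to 17 and 1 to 2, scaled 15 to 18 and 0 to 2. In WT P21 against P7 (1 and 33), scaling gave 6 higher, quantile normalization 5 and letter-code titles 0. Leaving out 1 library gave 1 to 1 and 33 to 35, scaled 5 to 7 and 25 to 28. In cKO P21 against P7 (1 and 27), scaling gave 7 higher, quantile normalization 5, and removed mitochondrial and haemoglobin genes and plain-number titles 2 each. Leaving out 1 library gave 1 to 2 and 25 to 28, scaled 4 to 7 and 17 to 22. With the replicate block, 22 and 1 members passed at P21 and 12 and 0 for the difference of the effects. Same-numbered libraries correlated at -0.095 to 0.066. The letter-coded libraries at P7 and P21 are too few for these values to show whether the numbers pair them. Of 1215 refitted values of the members given in full, 1177 kept direction and call, 38 lost the call and 0 turned round. These members were picked as those called on the raw scale with the smallest p-values, so most were bound to keep the call. Over all 40 members in P21 cKO against WT, 11 of the raw calls and 3 of the scaled calls held in every fit without 1 library. The cause of these shifts was not tested. The low TPM of Tnc and Lox limits their precision, and depth is unknown.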
